A study of Mus musculus with 22 samples.

Results

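Hair keratins and keratin-associated proteins are the proteins that a growing hair is made of. Genes were taken as members when their symbol in the tissue count table began with KRTAP, or was KRT followed by a number from 25 to 28, 31 to 40, 71 to 75 or 81 to 87, with the split pair Krt33a and Krt33b included. The rule found 80 of the 24401 symbols of that table, of which 25 are keratins and 55 are keratin-associated proteins (KAPs). The study sequenced RNA of mice that carry a K5-VGLL3 transgene (TG) and of wild-type mice (WT). K5 denotes keratin 5, a keratin of the basal layer of the epidermis and of the outer sheath of the follicle, and VGLL3 is a cofactor of TEAD transcription factors. Nonlesional skin and whole blood came from the same 8 age-matched mice, 4 of each genotype, with TG1, TG2, WT1 and WT2 male and TG3, TG4, WT3 and WT4 female. The keratinocyte cultures were started from tail skin of littermates at 23 days of age, 3 of each genotype, and were harvested after 3 days. All 3 transgenic cultures were labelled male, and of the wild-type cultures WT1 and WT2 were female and WT3 was male. The age of the skin and blood donors, the body site of the skin, the number of founder lines and the species of the transgene are not known from the labels. The labels give each skin donor its own animal tag, so the skin libraries are from different animals. With a single skin library per animal, the spread between animals cannot be told apart from that of sampling and library preparation.

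A hair follicle cycles between growth (anagen), regression and rest, and hair protein is made in the growing follicle only. Cells leaving the matrix at the base of the follicle become either the hair shaft or the inner root sheath that moulds it. The sheath contains the type I keratins Krt25 to Krt28 and the type II keratins Krt71 to Krt74, and Krt75 belongs to the companion layer around the sheath. The shaft contains the type I hair keratins numbered 31 to 40 and the type II hair keratins numbered 81 to 87, and a type I chain always pairs with a type II chain in a filament. KAPs form the matrix between these filaments in the cortex and fill the cuticle, and they cross-link the filaments through disulfide bonds. They are made late, above the bulb, after the first hair keratins. KAPs are classed by composition, and the class was read here from the annotated coding sequences. It was high glycine-tyrosine from 35% of these 2 residues together (17 KAPs), then ultrahigh sulfur above 30% cysteine among the rest (17 KAPs), and high sulfur for the 21 others. Krtap5-2, Krtap5-3 and Krtap28-13 passed both limits and so count as high glycine-tyrosine, with 34.6%, 35.1% and 42.8% cysteine. By this rule Krtap7-1, with 29.9% glycine and tyrosine and usually counted as high glycine-tyrosine, fell among the high sulfur KAPs, as did Krtap15 with 4.00% cysteine. The inner sheath had 4 type I and 5 type II members, Krt75 among the latter, and the shaft had 9 type I and 7 type II members.

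The members lie in a few clusters of the mouse genome (mm10). Chromosome 11 holds 13 type I keratins between bases 99315516 and 100105626, with 23 KAPs among them from 99550130 to 99993994. Type II keratins, 11 in number, lie on chromosome 15 between 101431038 and 101802346. Another 23 KAPs, 14 of them high glycine-tyrosine, lie on chromosome 16 between 88610705 and 89571183. Of the remaining KAPs 5 are on chromosome 7, 3 on chromosome 10 and 1 on chromosome 1. KAPs of 1 family are near copies of each other and Krtap14 and Krtap15 overlap on opposite strands, so counts within these families and of this pair are uncertain. Krt74 is annotated as a transcribed unitary pseudogene.

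The stretches just before the start sites of 6 members with a high level in skin are shown first, because most members hold a TATA box word there. They come from RefSeq on GRCm38.p6, are written 5′ to 3′ on the strand of the gene and end at the base before the start. Capitals mark TATAAA, the common TATA box core, and CTTTGAA, a core of the sites bound by LEF and TCF factors.
Krt25, an inner sheath keratin, chr11:99322952-99323051, minus strand: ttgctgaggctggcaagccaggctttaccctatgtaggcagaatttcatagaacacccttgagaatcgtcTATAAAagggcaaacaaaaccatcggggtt
Krt71, its type II counterpart, chr15:101743098-101743197, minus strand: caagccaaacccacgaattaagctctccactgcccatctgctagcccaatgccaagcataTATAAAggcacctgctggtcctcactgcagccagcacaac
Krt31, a keratin of the cortex, chr11:100050552-100050801, minus strand: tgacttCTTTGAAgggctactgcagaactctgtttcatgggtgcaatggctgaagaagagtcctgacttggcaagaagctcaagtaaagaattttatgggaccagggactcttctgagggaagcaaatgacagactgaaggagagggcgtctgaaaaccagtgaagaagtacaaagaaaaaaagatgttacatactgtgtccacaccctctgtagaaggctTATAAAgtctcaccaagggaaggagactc
Krt34, another keratin of the cortex, chr11:100041555-100041804, minus strand: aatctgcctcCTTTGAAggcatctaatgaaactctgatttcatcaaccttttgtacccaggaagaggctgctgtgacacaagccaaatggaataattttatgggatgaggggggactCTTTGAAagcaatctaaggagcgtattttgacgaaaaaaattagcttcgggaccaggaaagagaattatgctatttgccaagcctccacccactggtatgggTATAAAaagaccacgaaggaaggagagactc
Krtap8-1, a high glycine-tyrosine KAP, chr16:89487953-89488052, minus strand: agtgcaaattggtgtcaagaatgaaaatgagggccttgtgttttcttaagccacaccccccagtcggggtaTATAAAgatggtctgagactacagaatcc
Krtap4-16, an ultrahigh sulfur KAP, chr11:99851606-99851705, minus strand: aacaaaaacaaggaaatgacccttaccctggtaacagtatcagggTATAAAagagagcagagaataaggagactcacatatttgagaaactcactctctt
TATAAA began 30 bases before the start in Krt25, 40 in Krt71, 29 in Krt31, 31 in Krt34, 29 in Krtap8-1 and 55 in Krtap4-16. Of the 67 members with a RefSeq promoter entry, 51 (76.1%) held TATAAA on the gene's strand in the 250 bases before the start, against 2415 of the 27025 symbols of the promoter table (8.94%). In 39 members it began 25 to 40 bases before the start. It was found in 4 of 4 type I and 2 of 4 type II inner sheath members, in 5 of 7 type I and 0 of 2 type II hair keratins, and in 13 of 14 ultrahigh sulfur, 15 of 19 high sulfur and 12 of 17 high glycine-tyrosine KAPs. CTTTGAA, searched on both strands, was in 12 of 67 members (17.9%) and in 5.19% of all symbols. Type I hair keratins held it in 5 of 7 cases, Krt34 at both 240 and 133 bases before the start, Krt31 at 244 bases, and Krt32 and Krt33b at 247 bases. Krt39 held it on the other strand, at 19 bases. These are related genes of the chromosome 11 cluster, so they are not independent cases. Such a match describes letters in this window and not a bound site.

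The 100 bases before the start are also shown for 3 members with a pattern of their own, described further on, and hold neither word. The search took exact matches only, so near forms of the TATA box word were not counted. Farther out in the 250 bases searched, Krtap19-3 held CTTTGAA at 241 bases and, on the other strand, at 183 bases before the start.
Krtap19-3, a high glycine-tyrosine KAP that differed between wild-type skins, chr16:88878039-88878138, minus strand: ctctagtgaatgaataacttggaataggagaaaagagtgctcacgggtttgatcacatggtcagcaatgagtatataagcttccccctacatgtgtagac
Krt36, a hair keratin found in wild-type blood, chr11:100105627-100105726, minus strand: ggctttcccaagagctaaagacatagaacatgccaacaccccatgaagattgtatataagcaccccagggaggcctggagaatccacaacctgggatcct
Krt84, a hair keratin found in wild-type blood and in cultured keratinocytes, chr15:101532821-101532920, minus strand: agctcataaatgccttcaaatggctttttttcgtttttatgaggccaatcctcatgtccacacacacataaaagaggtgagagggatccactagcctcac

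Libraries held 19600892 to 40678246 counts in skin, 11197265 to 18235483 in blood and 33412093 to 51877437 in keratinocytes. Levels are CPM, that is counts scaled to a common total over TMM-scaled library sizes, and a negative log2 fold change means a lower value in the transgenic group. Skin libraries had 2537 to 4692 CPM of Krt5, the basal keratin, and the haemoglobin gene Hbb-bs had 252132 CPM in TG1 blood against 78.6 in TG1 skin. Vgll3 itself was measured at 98.9, 778, 123 and 92.2 CPM in TG1 to TG4 skin and at 72.9, 92.4, 43.6 and 49.1 in WT1 to WT4 skin. Vgll3 was highest by far in TG2, WT2 lay within the range of the other transgenic skins, and the difference did not pass (log2 fold change 1.81, edgeR adjusted p = 0.239). It did not pass in any of the 8 fits that left out 1 library either, while 1 of 7 other settings called Vgll3 higher.

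In skin, the 80 members together took 0.0133%, 0.382%, 0.0109% and 0.00636% of the counts in TG1 to TG4, and 0.695%, 0.0125%, 6.70% and 1.34% in WT1 to WT4. The libraries lay at 2 levels: TG1, TG3, TG4 and WT2 were low, and TG2, WT1, WT4 and WT3, in rising order, were high. Each genotype therefore had animals at both levels, and the genotypes overlapped. A count was found for 28, 70, 25 and 30 of the 80 members in TG1 to TG4 and for 72, 25, 79 and 77 in WT1 to WT4. Among the males 1 animal of each genotype was high (TG2 and WT1), while both transgenic females were low and both wild-type females were high. In tissue RNA, fewer cells of a type and less RNA per cell cannot be told apart.

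**Figure D1:**
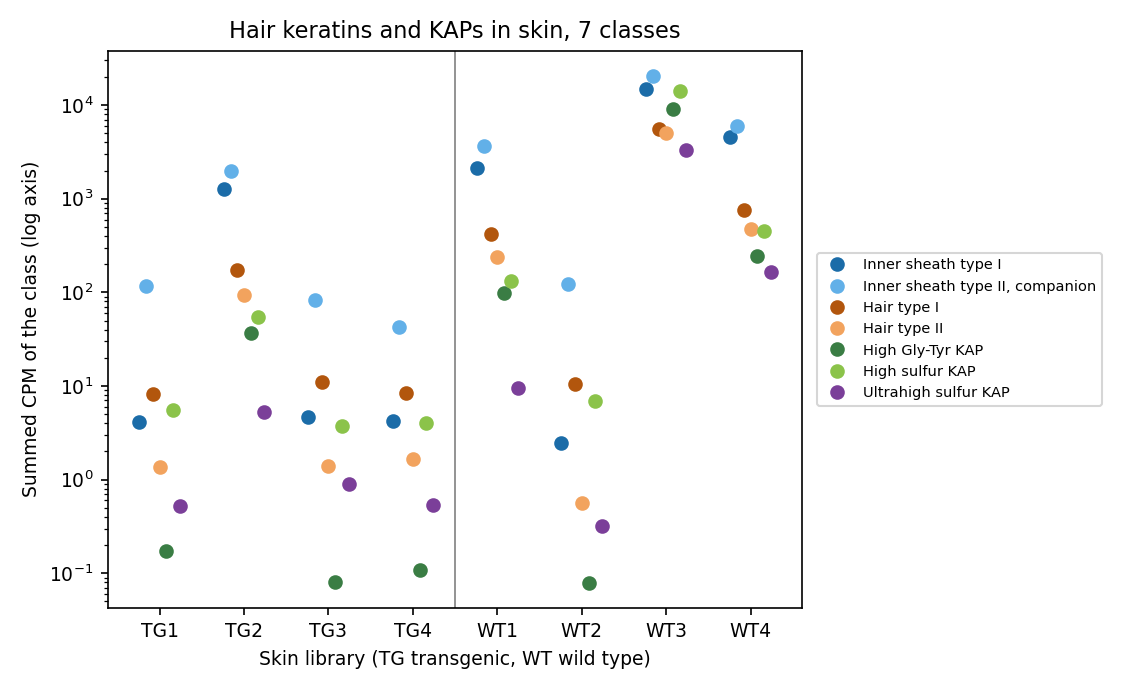
Summed CPM of each of the 7 classes (colours) in the 8 skin libraries (log axis), transgenic to the left of the line and wild type to the right. Every class is high in TG2, WT1, WT3 and WT4, and in WT3 the high sulfur KAPs (14024) and high glycine-tyrosine KAPs (8994) pass the hair keratins (5579 and 5089).

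The transgenic against wild-type comparison in skin asks whether hair genes differ with the transgene. The members had lower fitted values in transgenic skin but none passed the test. Of the 58 that passed the low-count filter all 58 had a negative log2 fold change, with a median of −6.96 beside −0.01 for all genes, and 0 reached an adjusted p under 0.05, the lowest being 0.210 (edgeR). At an unadjusted p under 0.05, 20 members were lower, beside 8.83% of all 17901 genes tested. Over all genes the adjusted test called 0% lower and 0.0112% in either direction. DESeq2 called 21 members lower, beside 2.44% of all genes, with a lowest adjusted p of 0.0238, and 7 of those 21 had an unadjusted edgeR p under 0.05. The 58 are no sample of the 80, since a member passed the filter through the libraries where it was high. No member was called in any of the 8 edgeR fits that left out 1 library, but the p-values moved with 2 libraries, TG2 and WT2. Without TG2, 73 of 74 members tested were lower at an unadjusted p under 0.05, beside 13.7% of all genes, and the lowest edgeR adjusted p was 0.0811. Without WT2 it was 64 of 74, beside 14.2% of all genes, and the lowest adjusted p was 0.0606, while 0.774% of all genes were called lower. TG2 and WT2 are the skins whose level differed from the rest of their genotype, so leaving either out widens the difference by construction. The 74 also passed the filter through the libraries where they were high, and the members rose and fell together. These counts therefore support nothing about the members.

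Summed CPM of the sheath and companion keratins was higher than that of the hair keratins or of the KAPs in each of the 8 skin libraries. Krt71, the leading type II keratin of the sheath, was at 1.04, 1350, 1.71 and 0.702 CPM in TG1 to TG4 and at 2851, 0.876, 14803 and 4620 in WT1 to WT4. Krt25, which pairs with it, was at 0.259, 708, 0.367 and 0.297 CPM in transgenic and at 1311, 0.0796, 6074 and 2486 in wild-type skin. Both were near zero in the same 4 libraries and at 708 CPM or more in the other 4. Their log2 fold changes were −6.93 (SE 5.82, edgeR adjusted p = 0.549) for Krt71 and −6.96 (SE 6.33, adjusted p = 0.582) for Krt25. Each standard error was thus nearly as large as the difference between genotypes. Within the genotypes, Krt71 ran from 0.702 to 1350 CPM in transgenic and from 0.876 to 14803 CPM in wild-type skin. Krt27 and Krt28, further type I sheath keratins, reached 6095 and 1756 CPM in WT3. Summed over the class, the 4 type I members went from 2.47 CPM in WT2 to 14868 in WT3, and the median of their log2 fold changes was −5.79 with a lowest adjusted p of 0.484.

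Krt75 of the companion layer behaved otherwise in the low libraries. It was at 115, 291, 81.1 and 41.9 CPM in TG1 to TG4 and at 380, 121, 1405 and 425 in WT1 to WT4. Krt75 was thus present in every skin, and it supplied most of the member counts in the 4 low ones, where type II sheath and companion members took 85.4% of all member counts in TG1, for example. Its log2 fold change was −2.10 (SE 0.99, edgeR adjusted p = 0.323). Krt26 and Krt72 of the inner sheath were low in TG2 and WT1 beside WT3 and WT4. Krt26 was at 3.61 CPM in TG2, 3.31 in WT1, 944 in WT3 and 162 in WT4, and Krt72 at 24.6, 15, 2438 and 184. Krt73, also of the inner sheath, differed less, at 296 CPM in TG2, 431 in WT1, 1768 in WT3 and 754 in WT4.

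The hair keratins of the shaft followed the same libraries at lower levels. Krt35, a type I keratin of the matrix and early cortex, was at 0.374, 129, 0.245 and 0.162 CPM in TG1 to TG4 and at 322, 0.438, 919 and 423 in WT1 to WT4. Krt34, which is made later in the cortex, was at 0, 1.08, 0 and 0.081 CPM in transgenic and at 4.59, 0, 1181 and 47.1 in wild-type skin. WT1 was thus close to WT4 for Krt35 but far below it for Krt34. Log2 fold changes were −5.94 for Krt35 (SE 4.15, edgeR adjusted p = 0.473) and −6.99 for Krt34 (SE 3.61, adjusted p = 0.351). Krt83, a type II keratin of the cortex, was at 0.115, 12.9, 0.122 and 0.432 CPM in TG1 to TG4 and at 42.1, 0.199, 1282 and 76.8 in WT1 to WT4, with a log2 fold change of −6.03 (SE 3.63, adjusted p = 0.410). Krt33a, another cortex keratin, reached 1533 CPM in WT3 and 92.0 in WT4. Over the classes, 7 of 9 type I and 7 of 7 type II hair keratins could be tested, with median log2 fold changes of −5.94 and −6.01 and lowest adjusted p of 0.300 and 0.336.

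Krt32, a type I keratin of the hair cuticle, had a floor that the other hair keratins lacked. It was at 6.80, 9.78, 8.19 and 7.31 CPM in TG1 to TG4 and at 9.09, 9.07, 181 and 58.3 in WT1 to WT4. TG2 and WT1, high for nearly all other members, were here level with the low libraries. The high sulfur KAP Krtap3-2 did the same and was lower still in them: it was at 5.18, 1.39, 3.55 and 3.51 CPM in TG1 to TG4 and at 2.62, 6.57, 479 and 20.8 in WT1 to WT4. Krt32, Krtap3-2, Krt75, Krt71, Krt27 and Krt28 were the 6 members with at least 10 counts in each of the 4 low libraries.

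**Figure D2:**
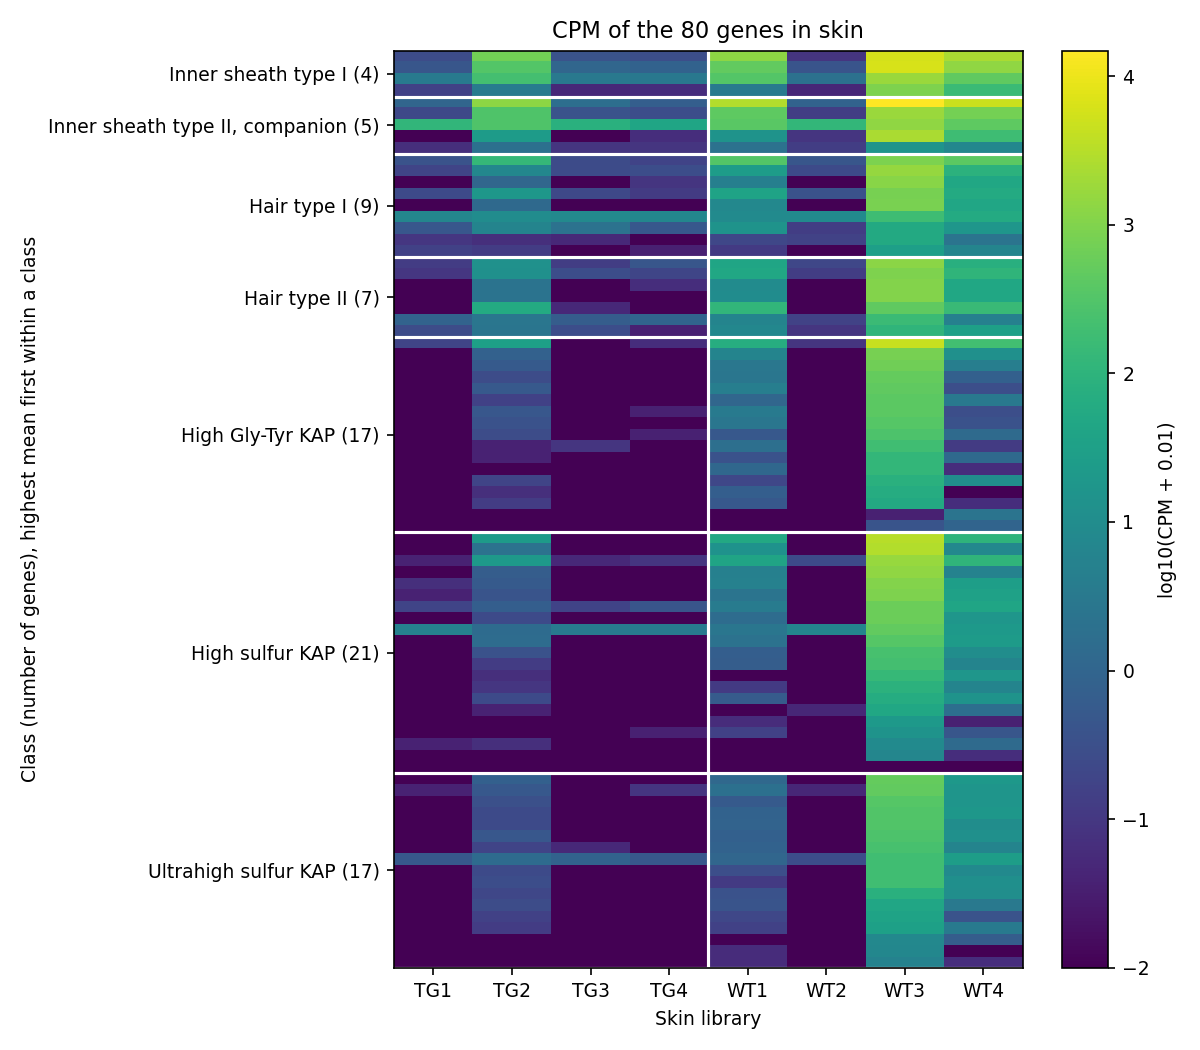
The 80 members (rows, by class and by falling mean) in the 8 skin libraries (columns), coloured by log10 of CPM plus 0.01. Sheath keratins and some hair keratins keep a trace in the low libraries, while most KAP rows are empty there. TG2 and WT1 look alike, and WT3 is bright in nearly every row.

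The KAPs were nearly absent from the low libraries and had the largest step between WT4 and WT3. Krtap8-1, a high glycine-tyrosine KAP, was at 0.173, 32.9, 0 and 0.054 CPM in TG1 to TG4 and at 70.6, 0.0796, 4467 and 206 in WT1 to WT4. Krtap7-1 was at 0, 23.3, 0 and 0 CPM in transgenic and at 52.5, 0, 3246 and 101 in wild-type skin. The ultrahigh sulfur Krtap4-7 was at 0, 0.767, 0 and 0 CPM in transgenic and at 1.19, 0, 529 and 19.0 in wild-type skin. All 3 were near or at zero in the same 4 libraries, and WT3 was far above WT4 for each. Per kilobase of exon in WT3, Krtap8-1 stood at 7782 CPM, above Krt71 at 6772, Krtap7-1 at 5227, Krt27 at 3932, Krt25 at 3054 and Krtap15 at 2692. Log2 fold changes were −7.22 for Krtap8-1 (SE 5.91, edgeR adjusted p = 0.539), −7.07 for Krtap7-1 (SE 5.89, adjusted p = 0.545) and −6.46 for Krtap4-7 (SE 3.60, adjusted p = 0.377).

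All 5 members with the smallest p in skin were KAPs with almost no transgenic counts. Krtap21-1 had 0, 1, 0 and 0 counts in TG1 to TG4 and 7, 0, 4479 and 49 in WT1 to WT4 (lowest edgeR adjusted p of all members, 0.210). Its summed counts were 4950 times as high in wild type, with a 95% exact interval of 888 to 196000 that covers counting error only. WT3 supplied nearly all of them, and WT2 had none. Krtap2-4 (adjusted p = 0.223), Krtap6-1 (0.227), Krtap4-6 (0.233) and Krtap9-3 (0.233) came next. Krtap9-3, an ultrahigh sulfur family name that fell among the high sulfur KAPs by composition, had 0, 8, 0 and 0 transgenic and 31, 0, 23445 and 663 wild-type counts. The 20 members with an unadjusted p under 0.05, beside 8.83% of all genes, were 5 high glycine-tyrosine, 7 high sulfur and 8 ultrahigh sulfur KAPs. They were tested only because of the libraries where they are high, so these counts support nothing about the classes. Median log2 fold changes were −8.06, −7.56 and −7.53 for these KAP classes.

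The order of the libraries was similar from gene to gene. Of the 79 members with a count in skin, 77 were highest in WT3. The exceptions were Krtap5-2, with 88 counts in WT4 against 1 in WT3, and Krtap5-3, with 36 against 15. The strict order WT3, WT4, WT1, TG2, with the other 4 libraries below, held for 50 members, namely 7 of 9 sheath, 12 of 16 hair keratin and 31 of 55 KAP genes. For 62 members these 4 libraries were the highest in some order, and of them 57 were higher in WT1 than in TG2, 5 the reverse. No member with a mean of at least 1 CPM had a higher mean in transgenic than in wild-type skin, and 3 members were higher in WT2 than in every transgenic library. In the 4 low libraries together, 42 members had no count at all: 0 of the sheath, 2 of the hair keratins, 13 high glycine-tyrosine, 13 high sulfur and 14 ultrahigh sulfur KAPs. Krt39, a late hair keratin, was the 1 member whose genotypes did not overlap, at 2.30 and 56.0 CPM in WT4 and WT3 and at 0.198 CPM or less elsewhere. The lack of overlap rests on 4 counts in WT2 (0.159 CPM) against 3 in TG1 (0.0864 CPM), a gap within counting error. Too few libraries reached the level of the low-count filter for Krt39, so it was not tested. Of all genes tested 3.50% were lower in transgenic skin without overlap.

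The high libraries did not differ by 1 common factor. Summed CPM in WT3 was 3.28 and 3.41 times that in WT4 for type I and type II sheath members, 7.44 and 10.8 times for type I and type II hair keratins, 36.9 times for high glycine-tyrosine, 31.3 times for high sulfur and 19.8 times for ultrahigh sulfur KAPs. KAPs thus took a larger share of the member counts in WT3. The high glycine-tyrosine, high sulfur and ultrahigh sulfur classes held 1.93%, 3.55% and 1.32% in WT4 and 12.4%, 19.4% and 4.56% in WT3. In WT1 these shares were 1.47%, 1.97% and 0.143%, and in TG2 they were 1.02%, 1.5% and 0.148%. TG2 and WT1, of different genotype, were close in make-up, and their class sums differed by 1.70-fold to 2.70-fold.

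WT4 and WT1, both wild type, differed most in the ultrahigh sulfur KAPs. Summed CPM in WT4 was 2.11 and 1.63 times that in WT1 for the sheath classes, 1.78 and 1.95 times for hair keratins, 2.46 times for high glycine-tyrosine, 3.38 times for high sulfur and 17.3 times for ultrahigh sulfur KAPs. Over the 53 members with at least 10 counts in both, the ratio ran from 0.0678 for Krtap19-3 to 48.9 for Krt26. Every ultrahigh sulfur KAP in that comparison was 7.43 to 30 times as high in WT4, Krtap4-16 being the highest (11 counts in WT1 and 608 in WT4, 95% interval 16.6 to 60.3). High glycine-tyrosine KAPs split: Krtap8-1 and 4 others were higher in WT4, and 4 were higher in WT1. Each library is 1 animal, so this contrast between 2 wild-type mice has no replicates, and the intervals, which are exact and cover counting error only, describe the 2 libraries.

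**Figure D3:**
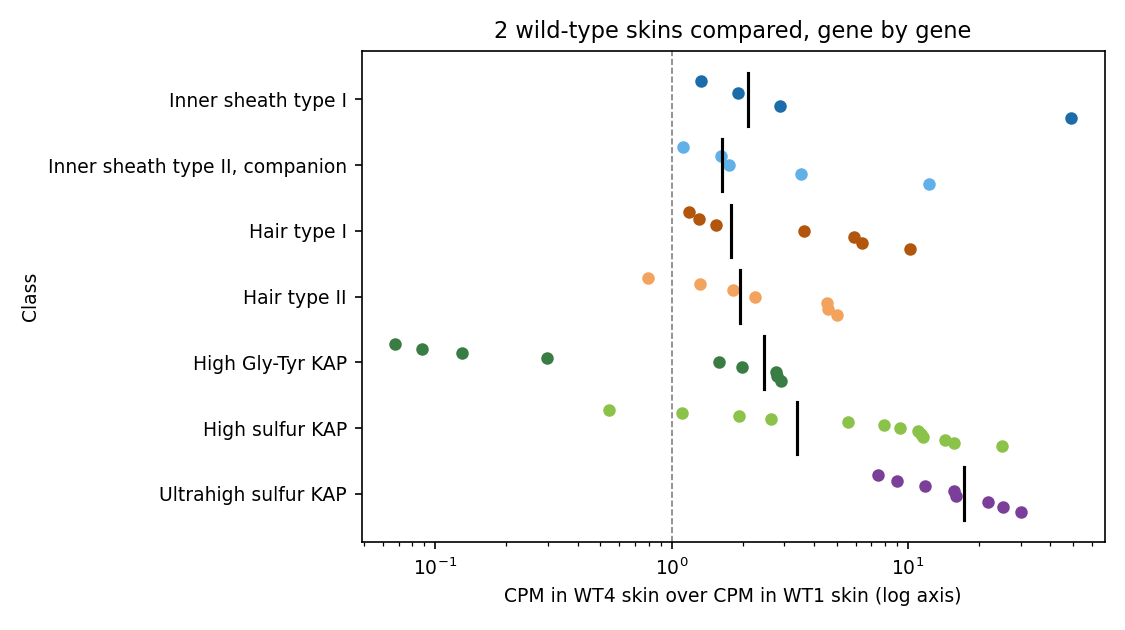
CPM in WT4 skin over CPM in WT1 skin (log axis) for the 53 members with at least 10 counts in both, 1 point per gene, with the ratio of class sums as a black bar. The ultrahigh sulfur KAPs all lie at 7.43 or above, while 4 high glycine-tyrosine KAPs lie at 0.297 or below.

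The members higher in WT1 were neighbours on chromosome 16. In map order along that cluster, the 8 members in a row from Krtap15 (bases 88820215 to 88829844) through Krtap19-1, 19-2, 19-3, 19-4, 19-5 and 19-9b to Krtap16-3 (88962273 to 88962873) were all higher in WT1 than in WT4. Of the other 15 members of the cluster only Krtap6-3 did the same, and Krtap13 had no count. Krtap19-3, the Krtap19 member whose promoter is shown above, had 18 counts in TG2, 88 in WT1, 11 in WT4 and 17044 in WT3. In CPM it was 14.8 times as high in WT1 as in WT4 (95% exact interval 7.86 to 30.6) and 1534 times as high in WT3 as in WT4 (857 to 3074). Krtap16-3 at the end of the row was 3.37 times as high in WT1 (2.11 to 5.50). Krtap15 had 288 counts in both and was 1.84 times as high in CPM in WT1 (1.56 to 2.18). Just outside the row, Krtap14 had 99 counts in WT1 and 203 in WT4, and Krtap22-2 had 125 and 460. This row was picked out after its values had been seen. Of the 75 members with at least 10 counts in the pair together, 65 were higher in WT4 and 10 in WT1, the tenth being Krt84 with a ratio of 0.794 (0.629 to 1).

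Some other follicle genes had the same high libraries as the members and some did not, and none of the follicle lists had a member that passed in skin. Among 18 regulators of the hair matrix the median log2 fold change was −0.65 and the lowest edgeR adjusted p 0.200. Hoxc13, a transcription factor that acts on hair keratin genes, was at 6.37, 47.6, 11.7 and 7.47 CPM in TG1 to TG4 and at 69.3, 8.83, 175 and 111 in WT1 to WT4, and was chosen after its values were seen. Its 4 highest libraries were those of the members, and in the same order. Gata3 and Satb1 of the same list, also chosen after their values were seen, did not follow: Gata3 was highest in TG4 (316 CPM) and lowest in WT3 (157), and Satb1 was highest in WT2 (52.1) and lowest in WT3 (11.9). Among 20 other sheath and shaft genes the median was −2.54 and the lowest adjusted p 0.262. Tchh, which encodes the trichohyalin of the inner sheath, was at 7.92, 732, 5.34 and 10.1 CPM in transgenic and 1732, 6.88, 15080 and 2802 in wild-type skin. The 24 genes of follicle signalling had a median of −0.41 (lowest adjusted p 0.173), and 12 genes of the bulge and outer sheath one of 0.04 (0.301). The bulge and outer sheath list ran the other way in wild type, with sums of 3409, 3637, 4447 and 4141 CPM in TG1 to TG4 and of 2265, 4503, 1879 and 2429 in WT1 to WT4.

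Markers of other cells moved with the same libraries. The 13 melanocyte genes, whose products pigment a growing hair, summed to 98.3, 572, 141 and 114 CPM in TG1 to TG4 and to 1081, 127, 1575 and 1338 in WT1 to WT4. The 24 proliferation genes summed to 347, 674, 524 and 512 CPM in transgenic and to 1265, 416, 1670 and 2158 in wild-type skin. All 13 and all 24 had a negative log2 fold change, with medians of −3.05 and −1.45 and lowest edgeR adjusted p of 0.261 and 0.222. The 12 genes of the sebaceous gland went the other way, with 11369, 5122, 7062 and 7917 CPM in transgenic and 5350, 6070, 2434 and 2062 in wild-type skin. The sum of the epidermal keratins was also lower in the 4 high libraries, without overlap. It was 16440, 7546, 17907 and 22444 CPM in TG1 to TG4 and 8733, 19709, 9489 and 10875 in WT1 to WT4. Single genes did not all separate in this way. Krt10 did, while Krt5, Krt14 and Krt1 overlapped, Krt5 being at 3163 CPM in TG2 and 3355 in WT3 against 2888 in TG1. The part of these cells in the levels of the members was not tested. The lists for skeletal muscle (median log2 fold change 0.29), fibroblasts (−0.14), T cells (1.34) and epidermal keratins (0.28) had 0 members past the test in skin as well.

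In blood the members were traces, and 2 hair keratins that are minor in skin stood out. Counts of all members together came to 484, 96, 268 and 61 in TG1 to TG4 and to 166, 258, 119 and 226 in WT1 to WT4, which is at most 0.00273% of a library. Of the 80 members 66 had at least 1 count and 4 had enough to be tested: Krt25, Krt71, Krt36 and Krt84. Krt36, a type I hair keratin known from the papillae of the tongue and from tail skin, had 1, 0, 0 and 0 counts in TG1 to TG4 blood and 13, 57, 15 and 68 in WT1 to WT4 blood. Krt84, a type II hair keratin of the same places, had 3, 0, 0 and 0 counts and 22, 78, 17 and 76. For both, every wild-type library was above every transgenic one, WT2 and WT4 were the highest, and the groups did not overlap.

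Krt36 and Krt84 passed as lower in transgenic blood, where 0.546% of all 11174 genes tested were called lower. Both passed the low-count filter through their wild-type counts, so their number among the 4 members tested supports nothing. Krt36 fell by 7.54 on the log2 scale (SE 1.29, edgeR adjusted p = 0.0429) and its summed counts, set to equal depth, were 218 times as high in wild type (95% exact interval 38.6 to 8680). Krt84 fell by 6.78 (SE 1.19, adjusted p = 0.0445), with a ratio of 91.8 (31 to 449). Both intervals pool the counts of the mice of a genotype, so they cover counting error only and not the spread between mice. Groups without overlap and lower in transgenic blood were found for 5.07% of all genes. The calls were near the threshold: limma-voom called neither, neither remained without TG1, TG3, TG4, WT2 or WT4, and without WT1 Krt36 alone passed (beside 0.191% of all genes called lower). Leaving out 1 library at a time gave adjusted p of 0.0266 to 0.198 for Krt36 and 0.0301 to 0.223 for Krt84. Together the pair made up 21.1%, 52.3%, 26.9% and 63.7% of the member counts in WT1 to WT4 blood. In the skin of mouse WT2, whose blood had 57 and 78, there were 3 and 4 counts of Krt36 and Krt84.

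Epidermal genes differed in the same blood libraries. Of 8 epidermal keratins tested 7 were called lower in transgenic blood (median log2 fold change −4.61), beside 0.546% of all genes. So were 3 of 4 keratins of the wound edge and outer sheath, 5 of 9 skeletal muscle genes and 2 of 8 fibroblast genes. Genes such as Krt2, with 2, 3, 1 and 0 counts in TG1 to TG4 blood, passed the low-count filter through their wild-type counts. These fractions of the genes tested therefore support nothing about the lists. Krt2, an epidermal keratin of the upper layers, was at 0.0786, 0.158, 0.0842 and 0 CPM in TG1 to TG4 blood and at 9.19, 35.1, 9.25 and 30.8 in WT1 to WT4 blood. In skin it was at 1.56, 1.28, 2.12 and 3.64 CPM in TG1 to TG4 and at 7.11, 2.91, 4.61 and 2.84 in WT1 to WT4. Krt2 was thus higher in each of the 4 wild-type bloods than in any of the 8 skins, and the highest bloods, WT2 and WT4, were also those for Krt36 and Krt84. Summed over the list, epidermal keratins were at 16.1 to 26.5 CPM in transgenic and 66.2 to 167 in wild-type blood, and skeletal muscle genes at 4.44 to 7.15 and 22.4 to 41.7. The part of these tissues in the Krt36 and Krt84 counts of blood was not tested.

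**Figure D4:**
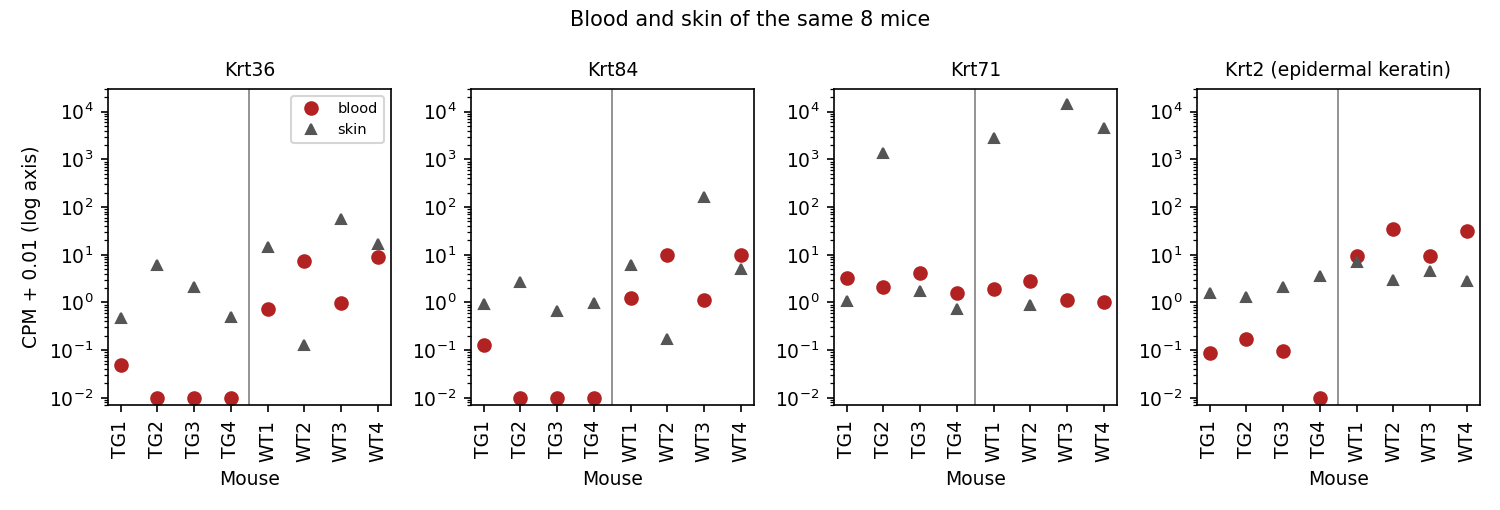
CPM plus 0.01 (log axis) of Krt36, Krt84, Krt71 and the epidermal keratin Krt2 in blood (circles) and skin (triangles) of each of the 8 mice. Krt36, Krt84 and Krt2 are higher in the blood of all 4 wild-type mice than in any transgenic blood, while Krt71, which spans 4 orders of magnitude in skin, is nearly level in blood.

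The other members in blood did not follow the mouse's own skin. Krt71 had 81, 39, 49 and 21 counts in TG1 to TG4 blood and 34, 22, 17 and 8 in WT1 to WT4 blood, and Krt25 had 40, 15, 28 and 12 against 18, 6, 9 and 6. In CPM both were highest in TG3 (4.13 and 2.36) and next in TG1 (3.18 and 1.57), mice with almost none in their skin, and neither passed (edgeR adjusted p of 0.407 and 0.421). Krtap8-1 had 25, 3, 21 and 2 counts in transgenic and 2, 3, 4 and 3 in wild-type blood, and Krtap15 had 25, 0, 9 and 1 against 2, 0, 0 and 1. Of the 43 members with at least 10000 counts in WT3 skin, 42, 19, 35 and 12 had a count in TG1 to TG4 blood and 32, 31, 26 and 26 in WT1 to WT4 blood. They summed to 461, 94, 258 and 60 counts in transgenic and 126, 118, 80 and 75 in wild-type blood. They made up 461 of the 484 member counts in TG1 blood and 75 of the 226 in WT4 blood.

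Cultured tail keratinocytes made very little of the members. The keratinocyte table lists 21596 symbols, each with at least 6 counts over the cultures, and 17 members are among them. Their counts came to 10898, of which Krt75 took 9179, and 14 of the 17 had fewer than 100 counts over the 6 cultures. Only Krt75, Krt84 and Krt36 could be tested. Most KAPs and hair keratins are thus not listed, which leaves each at fewer than 6 counts or out of the table for another reason.

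Krt84 was lower in transgenic keratinocytes. It was at 2.84, 2.53 and 2.73 CPM in the transgenic cultures (2.70 ± 0.158, SD, n = 3) and at 7.51, 6.33 and 7.35 in the wild-type ones (7.06 ± 0.641, SD, n = 3). The groups were far apart, and the male wild-type culture, at 7.35 CPM, was as high as the female ones. Krt84 fell by 1.39 on the log2 scale (SE 0.122, edgeR adjusted p = 0.000844), which is 2.62-fold, and 8.09% of all 14451 genes tested were called lower. It passed in all 11 alternative fits and leave-one-out fits, with adjusted p of 3.98e-15 to 0.0114. Vgll3 was higher in the transgenic cultures (log2 fold change 1.19, edgeR adjusted p = 0.000716).

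Krt75 and Krt36 did not pass. Krt75 was at 27.7, 21.2 and 36.2 CPM in transgenic (28.4 ± 7.5, SD, n = 3) and 40.3, 40.1 and 56.9 in wild-type cultures (45.7 ± 9.66, SD, n = 3). The groups did not overlap, as for 18.5% of all genes in this direction, and the log2 fold change was −0.69 (SE 0.212, edgeR adjusted p = 0.0713), although DESeq2 (0.00439, beside 10.2% of all genes called lower) and edgeR without TG3 (0.0101, beside 13.5%) called it. Krt36 had the opposite sign to Krt84, with 1.15, 0.965 and 0.792 CPM in transgenic (0.968 ± 0.177, SD, n = 3) and 0.345, 0.369 and 0.811 in wild-type cultures (0.508 ± 0.262, SD, n = 3), a log2 fold change of 0.91 (SE 0.372, adjusted p = 0.147). The highest wild-type culture, WT3, was the male one, and sex and genotype are hard to separate here: without WT3 the log2 fold change was 1.42 (adjusted p = 0.0410, beside 4.03% of all genes called higher), and with sex as a covariate it was 0.24. Krt32, at 1, 0 and 5 counts in transgenic and 20, 13 and 8 in wild-type cultures, was called lower when TG3 was left out (adjusted p = 0.0155), and Krt87, at 6, 6 and 5 against 29, 17 and 10, when WT3 was left out (adjusted p = 0.0360, beside 5.14% called lower). Krt27, a sheath keratin, had all its 17 counts in the transgenic cultures (10, 5 and 2). Beside these values, 22 of 24 proliferation genes (median log2 fold change −0.59) and 3 of 4 simple keratins were called lower in the transgenic cultures. Of all genes 8.09% were called lower there. The part of these lists in the members' levels was not tested.

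**Figure D5:**
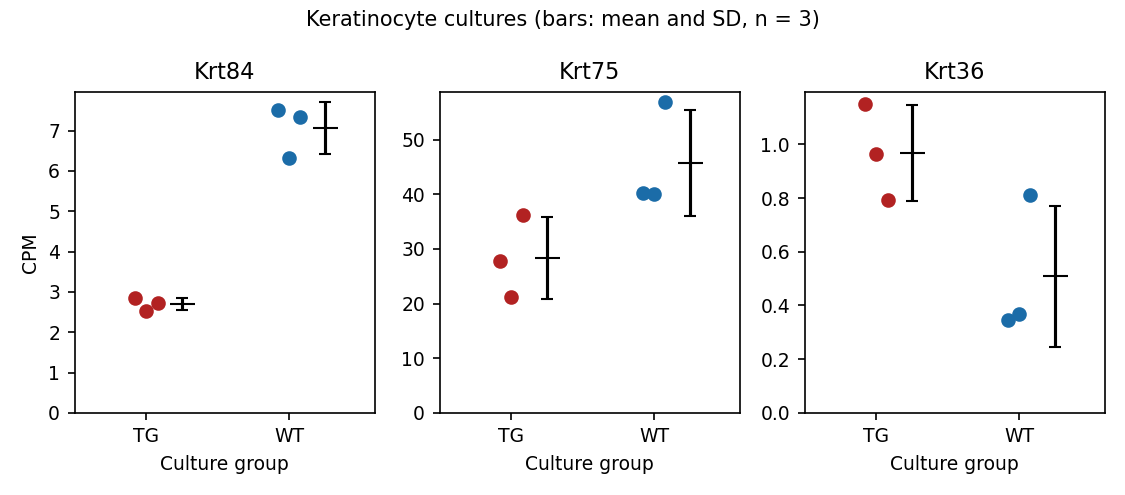
CPM of the 3 members tested in keratinocyte cultures (points, 3 transgenic and 3 wild type), each with the mean and SD beside the points. Krt84 is 2.84 CPM or less in transgenic and 6.33 or more in wild-type cultures, and Krt36 is the 1 member with the higher mean in the transgenic ones.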

How the data were processed

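RNA of 8 skin, 8 blood and 6 keratinocyte samples was sequenced from stranded mRNA libraries. The raw counts per gene symbol used here were deposited by the authors in 1 table for the tissues and 1 for the keratinocytes. Per the submitters' processing notes, the build was mm10 and the tools were HTSeq 0.6.1, STAR 2.5.2 and DESeq2. For the strand setting of the counting and for the annotation, the sources used here give nothing. The members, classes and gene lists were chosen with earlier results of these data known.

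Genotypes were compared per tissue over all genes by edgeR's quasi-likelihood test (version 4.0.16, R 4.3.3) after TMM and filterByExpr, with sex as covariate in skin and blood, and a Benjamini-Hochberg adjusted p under 0.05 passed. Alternatives used DESeq2 1.42.0, limma-voom 3.58.1, other scaling, no filter, a replicate block and each library left out. Positions and coding sequences came from GENCODE vM21, which matched 79 members, 78 of them with a protein, and promoters from RefSeq. Named were the 3 highest members per class, those that passed, the 5 with the smallest p in skin, the most counted in blood and cultures, and further ones chosen after their values were seen, among them Krt26, Krt32, Krt72, Krtap3-2, Krtap19-3 and Krtap16-3. Skin and blood of the same genotype and number came from the same animal. Within a tissue, the deviations of 8 same-numbered transgenic and wild-type pairs correlated at −0.464 to 0.407. Differently numbered skin libraries reached 0.446, so this check cannot settle a pairing across genotypes, and the main test used none. No pair of libraries within a group agreed within sampling noise. Total counts set the precision. Intervals of single libraries, of their ratios and of ratios of summed counts cover counting error only, with a confidence level of 95%.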

Additional observations from a re-analysis of the deposited data

Results flagged for a closer look

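In groups of 4 libraries a single library stood apart from the other 3 in 34 of 52 groups (Dixon's gap over range above the 95% critical value for 4 samples). A rate of 1 in 20 by chance holds for normally distributed values. The values here were untransformed and skewed, and the genes were chosen with the data known, so the count cannot be set against that rate. Nearly all are the same libraries, TG2 or WT3 of skin, so these are not 34 independent cases.

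Among transgenic skins TG2 was apart and highest. Its members took 0.382% of the counts. Its class sums were 1263 and 1963 CPM for type I and type II sheath members, 173 and 92.7 for type I and type II hair keratins, and 36.6, 53.9 and 5.31 for high glycine-tyrosine, high sulfur and ultrahigh sulfur KAPs. Single genes apart in TG2 were Krt71 (1350 CPM), Krt25 (708), Krt35 (129), Krt83 (12.9), Krt84 (2.70) and Krt34 (1.08), the KAP genes Krtap8-1 (32.9), Krtap7-1 (23.3), Krtap15 (2.13) and Krtap4-7 (0.767), and Vgll3 (778).

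Among wild-type skins WT3 was apart and highest. Its class sums were 5579 CPM for type I and 5089 for type II hair keratins, 8994 for high glycine-tyrosine, 14024 for high sulfur and 3293 for ultrahigh sulfur KAPs. Single genes apart in WT3 were the keratins Krt83 (1282 CPM), Krt34 (1181) and Krt84 (165), and the KAP genes Krtap8-1 (4467), Krtap7-1 (3246), Krtap15 (2832), Krtap4-7 (529) and Krtap3-2 (479). The sheath class sums of WT3 were not apart by this measure.

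In transgenic blood TG1 was apart with 0.0393 CPM of Krt36 and 0.118 CPM of Krt84, which stand for 1 and 3 counts beside none in the other 3. With none in the others, any count passes this measure.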

How the results depend on the processing

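In skin, 0 members were called in either direction under each alternative of edgeR and limma-voom, while DESeq2 called 21 lower. The median log2 fold change of the members tested ran from −12.82 (without TG2) to −4.41 over the libraries left out and from −7.64 to −6.95 over the other settings. In blood the count of members called lower was 0 to 2 over the libraries left out and 0 with limma-voom. In the leave-one-out fits of blood without TG1, TG3, TG4, WT2 or WT4 only 0.0257% to 0.111% of all genes were called lower. Without a filter on low counts 3 were lower and 1 was higher in blood, Krt83 (log2 fold change 3.74, edgeR adjusted p = 0.00961). That fit called 1.27% of all genes lower and 4.01% higher. In keratinocytes 1 to 3 members were lower and 0 to 1 higher over the libraries left out, and DESeq2 called 2 lower. Taken as a share of keratin and KAP counts only, the members made up 0.677%, 24.5%, 0.466% and 0.226% in TG1 to TG4 skin and 37.1%, 0.596%, 83.6% and 47.4% in WT1 to WT4 skin, in the same order. The cause of these shifts was not tested, apart from the denominator. No direction reversed. The low-count filter left 22 of 80 members untested in skin.

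With the replicate number as a block, 0 members were called in skin (median log2 fold change −7.64 over 74 tested). In blood 2 were called lower, Krt36 and Krt84 (edgeR adjusted p = 0.0142 and 0.0368), beside 0.391% of all genes. Same-numbered libraries deviated together at correlations of 0.082, −0.464, −0.116 and 0.077 in skin and 0.407, −0.041, −0.249 and −0.143 in blood. The cultures were not paired.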
